A study of Mus musculus with 2 samples.

Results

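In perivascular adipose tissue from young wild-type (WT) mice, 1110 of 11286 stromal cell barcodes carried transcripts of the neutrophil-attracting chemokine genes Cxcl1 or Cxcl5, a share of 9.84% (95% exact binomial interval 9.29 to 10.4). A barcode marks 1 droplet, usually 1 cell, and each transcript molecule caught in it is counted once by its unique molecular identifier (UMI). A barcode was taken as stromal when it had at least 500 genes, at most 10% mitochondrial UMIs, at least 10 UMIs of the fibrillar collagen genes Col1a1, Col1a2 and Col3a1 together and 0 UMIs of Pecam1, Cdh5, Ptprc, Upk3b and Sox10, genes of endothelial, blood, mesothelial and Schwann cells. It was taken as a Cxcl1/Cxcl5 barcode when Cxcl1 and Cxcl5 together had at least 2 UMIs. The comparison set was the 8872 young stromal barcodes with 0 UMIs of both, and the 1304 with exactly 1 UMI were kept apart. The members were therefore chosen on measured values, and their own Cxcl1, Cxcl5 and collagen levels are given as a description.

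The series holds 2 libraries of primary perivascular stromal cells, 1 labelled young and 1 labelled old, both WT, and is tied by its title to cells of the SM22α (Tagln) lineage and abdominal aortic aneurysm. Tissue around the aorta was digested with collagenase, passed through a strainer and freed of red cells, and 3′ single-cell libraries were made. The labels give neither the ages in months nor the sex or the number of mice behind each library. The young library had 13104 barcodes and 130398999 UMIs, with a median of 9044.5 UMIs per barcode, and the old library 14636 barcodes and 147166475 UMIs, with a median of 9108. With 1 library per age no difference has a replicate check: no test was made, age and library cannot be told apart, and all intervals below cover counting error only.

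Cxcl1 and Cxcl5 encode ligands of the receptor CXCR2 and draw neutrophils into tissue. Fibroblasts make them when interleukin-1, tumour necrosis factor or microbial products activate the transcription factor NF-kB, usually together with the monocyte attractants CCL2 and CCL7 and with interleukin-6. Adventitial and perivascular fat stromal cells are a known source of these signals in the vessel wall. The question asked here was whether the young cells that carry such transcripts resemble the stromal cells of the old library in the rest of their genes.

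In the GRCm38 (mm10) annotation Cxcl1 lies at chr5:90891241-90893115 and Cxcl5 at chr5:90759360-90761624, both on the plus strand, in the same cluster of CXC chemokine genes. The promoter windows below show the letters around the start sites of the inducible genes that recur in the results. They are the 150 bases before the start in RefSeq GRCm38.p6, written 5′ to 3′, at chr5:90891095-90891244 (plus strand) for Cxcl1, chr5:90903749-90903898 (plus) for its neighbour Cxcl2, chr5:30012964-30013113 (plus) for Il6 and chr11:83578637-83578786 (minus) for Ccl9. Capitals mark matches, on either strand, to the kappaB consensus, the motif that NF-kB binds.
Cxcl1: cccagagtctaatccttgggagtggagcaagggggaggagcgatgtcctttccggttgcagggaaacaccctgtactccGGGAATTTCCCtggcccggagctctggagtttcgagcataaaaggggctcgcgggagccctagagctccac
Cxcl2: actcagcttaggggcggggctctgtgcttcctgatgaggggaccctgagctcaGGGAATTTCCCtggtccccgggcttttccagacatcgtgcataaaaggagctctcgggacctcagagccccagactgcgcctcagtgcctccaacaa
Il6: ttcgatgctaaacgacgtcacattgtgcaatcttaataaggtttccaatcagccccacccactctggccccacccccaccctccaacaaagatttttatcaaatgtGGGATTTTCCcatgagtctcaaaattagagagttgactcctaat
Ccl9: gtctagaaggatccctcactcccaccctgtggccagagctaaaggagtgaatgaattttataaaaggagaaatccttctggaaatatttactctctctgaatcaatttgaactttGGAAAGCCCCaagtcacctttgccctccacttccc
Matches on the 2 strands that overlapped were joined to 1 stretch. The match lay 71 bases before the start in Cxcl1, 97 in Cxcl2, 44 in Il6 and 35 in Ccl9. Windows were found for 9 of 12 genes looked up (Cxcl5, Ccl2 and Ccl7 were not matched), and those of Apln, Kitl, Tbx20, Ptx3 and Saa3 held no match. Of all 32851 windows in the table, 1512 (4.60%) held at least 1 match. A match describes these letters and not binding.

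The chemokine signal of the members was low and uneven. They had a median of 3 UMIs of Cxcl1 and Cxcl5 together, with a highest value of 55, and a summed level of 359 CPM (counts per 1000000 UMIs of the group), of which Cxcl1 made 178 CPM and Cxcl5 181 CPM. In number, 474 members had the minimum of 2 UMIs, 290 had at least 5 and 76 at least 10. The members held 78.0% of all Cxcl1 and Cxcl5 UMIs of the young stromal barcodes, and the 111 members with the most UMIs held 30.9% of the members' own. In the old library 10191 of 10231 stromal barcodes (99.6%) reached 2 UMIs under the same filters, 28 had 1 and 12 had 0. The old stromal barcodes had a median of 45 UMIs and a summed level of 5561 CPM.

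Free RNA in the droplets sets a floor for such counts. At 3000 UMIs drawn from each barcode, 10.4% of young stromal barcodes had a Cxcl1 or Cxcl5 UMI, against 21.4% before thinning. The same share was 0 of 25 in young Schwann-type barcodes, which allows up to 13.7%, and 3.45% of 29 deep enough endothelial-type barcodes, with median depths of 10644 and 10565 UMIs against 9396 in the stromal barcodes. Undrawn, their summed levels were 3.37 and 5.17 CPM against 50.3 CPM in the stromal barcodes. Young mesothelial-type barcodes were at 66.6 CPM, so that the signal was not confined to the stromal class. The young background was therefore low, but too few Schwann-type and endothelial-type barcodes were present to set it closely. In the old library these other types had high levels. There 25 Schwann-type barcodes were at 1560 CPM, with 60.0% at 2 or more UMIs, and 1075 endothelial-type barcodes at 2612 CPM, with 97.0%. Their median depths were 5738 and 11812 UMIs against 9599 in old stromal barcodes. Whether these UMIs were free RNA or the cells' own transcripts was not tested. The 99.6% of old stromal barcodes with 2 or more UMIs can therefore not be read as a share of expressing cells, and the part of free RNA in the old level was not tested.

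The members were deeper than the comparison set, with a median of 10375 UMIs and 2817.5 genes against 9202.5 UMIs and 2568 genes. They held more barcodes with at least 3 UMIs of cell-cycle genes, 32.6% (29.9 to 35.5) against 27.6% (26.7 to 28.6). The share among the highest doublet scores was 14.4% in the members and 10.0% in the comparison set. In all, 275 barcode sequences were found in both libraries, among them 29 of the members (2.61% of members) and 183 of the comparison set (2.06% of that set).

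The rule asked for collagen UMIs and for 0 UMIs of genes of other cell types. The marker sums below are therefore a description and no check of the stromal label. In the members the 10 fibroblastic markers were all detected and summed to 2216 CPM. They summed to 2054 CPM in the comparison set and 2848 CPM in old. The 10 smooth muscle markers, given again with the contractile genes, summed to 2764 CPM in members and 3628 CPM in the comparison set. Pdgfra, the receptor that marks fibroblasts, was at 140 CPM against 95.6, and the matrix proteoglycan gene Dcn at 132 against 88.5. The 10 macrophage markers summed to 18.5 CPM in members and 14.3 CPM in the comparison set, with Adgre1, C1qb, Cd163 and Fcgr1 at 0 in members. The 10 neutrophil markers summed to 5.82 and 4.25 CPM, with S100a9, Ly6g, Retnlg, Ngp and Ltf at 0. The 10 blood endothelial markers summed to 101 and 89.0 CPM, with Tie1 and Cldn5 at 0. The 10 mesothelial markers summed to 30.6 and 30.7 CPM with Muc16 at 0, and the 10 pericyte markers to 37.5 and 36.6 CPM with Higd1b and Vtn at 0. The 10 Schwann markers were lower in members, 6.67 against 10.2 CPM, with Gfra3 at 0, and the 5 erythroid markers were all at 0. The 10 adipocyte markers summed to 5.12 CPM in members, 3.91 in the comparison set and 44.1 in old, with Cidec, Cidea, Ucp1 and Lep at 0 in members. What part these small differences have in the results was not tested.

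Few other genes set the members apart. Of 7136 genes with a mean of at least 10 CPM in the 2 groups, leaving out the genes of the rule, 74 were at least 1.5-fold higher in members than in the comparison set (1.04%) and 51 at least 1.5-fold lower (0.715%), with a median log2 ratio of 0.03 over all genes. The counts were 99 and 62 without the highest doublet scores, 102 and 65 without cycling barcodes, 95 and 53 with the comparison set weighted to the members' depths, and 73 and 51 without barcodes shared by both libraries. In the old library 1085 of 7375 genes were at least 1.5-fold higher than in the same comparison set (14.7%) and 399 lower (5.41%), with a median log2 ratio of 0.15. Both comparisons use the same 8872 barcodes, so their values are set side by side and no overlap is given. Set directly against the members, the old barcodes were at least 1.5-fold higher for 987 of 7419 genes (13.3%) and lower for 398 (5.36%).

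Monocyte-attracting chemokine genes were among the largest differences. Of 16 CC chemokine genes, 3 were measured at this level and all 3 were at least 1.5-fold higher in members, with a median log2 ratio of 1.10. At a minimum of 20 UMIs, where 4.90% of 13902 genes were higher and 5.86% lower, 10 were measured, 5 were higher, 2 were lower and the median was 0.51. Ccl7 (chr11:82045712-82047525), a monocyte attractant, was at 294 CPM in members, 206 in the barcodes with 1 UMI, 137 in the comparison set and 2806 in old. The members were thus 2.14-fold above the comparison set (log2 1.10, 95% counting interval 1.05 to 1.15) and the old barcodes 20.4-fold above it. Its neighbour Ccl2 (chr11:82035571-82037453), the main monocyte attractant, was at 172, 132, 92.6 and 2897 CPM in the same order, 1.86-fold higher in members (log2 0.89, 0.82 to 0.96). Ccl9, which acts through the receptor CCR1, differed in rank: at 66.9 CPM in members against 27.0 in the comparison set (log2 1.31, 1.19 to 1.42), it was slightly above the 60.8 CPM of old. The old barcodes exceeded the members 9.54-fold for Ccl7 and 16.9-fold for Ccl2.

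Among other CXC chemokine genes, Cxcl2 and Cxcl3 were near the limit of detection in young barcodes. Cxcl2 had 6 UMIs in members and 8 in the comparison set (log2 2.39, 0.59 to 4.11), against 108 CPM in old. Cxcl3 had 9 UMIs in members and 1 in the comparison set (log2 5.98, 3.13 to 11.43), against 23.3 CPM in old. Both sit beside Cxcl1 and Cxcl5 in function, as CXCR2 ligands, and both were highest in old. Of 8 further CXC and CX3C chemokine genes, 3 were measured, 1 was at least 1.5-fold higher in members and 0 were lower. The median log2 ratio of the 3 was 0.24, against 2.63 in old. The 8 genes summed to 822 CPM in members, 814 in the comparison set and 1722 in old. The 1 higher gene was Cxcl14, a homeostatic chemokine gene, at 19.1 CPM in members, 12.2 in the comparison set and 95.8 in old.

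Among 19 cytokine and colony-stimulating factor genes, 6 were measured, 2 were at least 1.5-fold higher, none was lower and the median log2 ratio was 0.36; in old 4 were higher and the median was 1.21. Il6, the inflammatory cytokine, was at 49.3 CPM in members, 34.6 with 1 UMI, 25 in the comparison set and 861 in old (members log2 0.98, 0.85 to 1.11). Kitl, which encodes stem cell factor, was at 19.7, 12.7, 10.0 and 26.5 CPM (log2 0.97, 0.77 to 1.18). Il33, an alarmin gene below the level filter, was at 11.01 CPM in members against 4.55 and 48.5 in old (log2 1.28, 0.99 to 1.55). Il11, another interleukin-6 family gene that was at 125 CPM in old, went the other way, with 1.94 CPM in members against 3.49 (log2 -0.85, -1.50 to -0.26).

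Acute-phase and innate defence genes followed in part. Of 18, 8 were measured, 4 were at least 1.5-fold higher in members, none was lower and the median log2 ratio was 0.53, against 7 higher and a median of 1.40 in old. Ptx3, a soluble pattern-recognition protein, was at 763 CPM in members, 566 with 1 UMI, 410 in the comparison set and 1108 in old (log2 0.89, 0.86 to 0.93). The protease inhibitor Serpina3n, at 66.6 CPM against 37.5, exceeded the 41.0 CPM of old, whereas the copper carrier ceruloplasmin (Cp) was at 37.4 against 21.4 and 50.5. Haptoglobin (Hp) was at 63.1 CPM against 42.0 and 374 in old. Lcn2, which encodes a lipocalin that withholds iron from bacteria, was rare in young barcodes, at 48 UMIs in members (3.72 CPM) and 93 in the comparison set (1.03 CPM), and stood at 124 CPM in old.

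Saa3, a serum amyloid gene at 1218 CPM in old, did not follow. Its summed level was 50.7 CPM in members and 37.8 CPM in the comparison set, but 1 member held 300 of the members' 654 UMIs. Without the barcode with the most Saa3 UMIs in each group the levels were 27.5 and 34.0 CPM (log2 -0.31, -0.47 to -0.15), so the direction rested on that barcode.

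Few of the signalling genes upstream of these chemokines passed 1.5-fold in members. Of 16 receptor genes that feed NF-kB, 11 were measured. Il1r1, the signalling receptor of interleukin-1, was 1.52-fold higher (120 against 78.6 CPM, log2 0.60, 0.52 to 0.68) and Il1rl1, the interleukin-33 receptor, 1.64-fold lower (7.99 against 13.1 CPM). The NF-kB subunit and feedback list had 12 of 21 genes measured, 0 past 1.5-fold in either direction and a median log2 ratio of 0.23. Old had 8 of the 12 higher, 1 lower and a median of 1.18. At a minimum of 20 UMIs, where 4.90% of 13902 genes were higher in members, 20 of the list were measured. Of these 2 were higher and 0 lower in members, with a median of 0.23, and 16 were higher and 1 lower in old. The NF-kB inhibitor Nfkbia was at 119 CPM in members, 95.6 in the comparison set and 425 in old, and the NF-kB-induced Sod2 at 112, 80.7 and 725 CPM. The subunit Rela was at 26.6, 28.6 and 49.0 CPM. Immediate early genes, which tissue digestion can induce, had 24 of 26 measured and 0 past 1.5-fold in members (median log2 0.08), against 12 higher and 1 lower in old (median 0.56).

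Complement had 5 of 20 genes measured with 1 higher, C3, at 24.0 CPM against 15.4 and 100 in old. MHC class I presentation had 9 of 19 measured with 1 higher, the immunoproteasome subunit Psmb8, against 7 higher in old. The interferon response had 10 of 32 measured with 1 higher, Ifit1, at 15.7 CPM against 9.11 and 18.8 in old. A single barcode held 31 of the 203 Ifit1 UMIs of the members, and without the highest doublet scores its log2 ratio went from 0.79 to 0.29, under 1.5-fold. At this level each of these lists had 0 genes lower in members, with median log2 ratios of 0.35, 0.11 and 0.06. At a minimum of 20 UMIs, where 4.90% of 13902 genes were higher and 5.86% lower, complement had 4 of 13 higher and 1 lower. MHC class I presentation then had 3 of 18 higher and the interferon response 5 of 28, with 0 lower in both.

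Genes of adipogenic commitment had 13 of 24 measured and 3 at least 1.5-fold higher: Lpl, the lipoprotein lipase (365 against 203 CPM), Cebpa, a transcription factor of fat cell formation (26.1 against 16.1 CPM) and Apoe. Lpl was at 265 CPM in old, below the members. Apln, which encodes the peptide ligand of the apelin receptor, was at 24.97 CPM in members, 15.6 with 1 UMI, 10.4 in the comparison set and 36.3 in old (log2 1.27, 1.08 to 1.45). The growth-factor binding protein Igfbp4 was at 329, 256, 193 and 610 CPM.

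Among genes lower in members, Eln (chr5:134702593-134747323), which encodes tropoelastin, had the lowest ratio. It was at 12.9 CPM in members, 26.2 with 1 UMI, 57.7 in the comparison set and 15.6 in old, 4.48-fold lower in members (log2 -2.16, -2.40 to -1.94) and 3.70-fold lower in old. It was not matched by a general loss of matrix genes. Of 21 elastic fibre and crosslinking genes, 19 were measured, 2 were lower (Eln and the TGF-beta binding protein Ltbp1) and 1, Fbln1, was higher. Of 16 collagen genes outside the rule, 13 were measured and 0 passed 1.5-fold, with a median log2 ratio of 0.12.

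Of 18 contractile genes, 14 were measured, 4 were at least 1.5-fold lower in members (Des, Cnn1, Csrp1 and Lmod1), none was higher and the median log2 ratio was -0.44. In old 8 were lower, none was higher and the median was -0.72. The muscle intermediate filament gene Des was at 10.1 CPM in members, 16.8 with 1 UMI, 22.8 in the comparison set and 5.70 in old (log2 -1.18, -1.45 to -0.92). Calponin (Cnn1) was at 116, 153, 202 and 80.4 CPM. Tagln, the SM22α gene of the series title, was at 992 CPM in members, 1184 in the comparison set and 783 in old, and Acta2, smooth muscle actin, at 1568, 2105 and 1955 CPM. Neither passed 1.5-fold in members. The 10 smooth muscle markers summed to 2764, 3628 and 2889 CPM. Igfbp2, a binding protein for insulin-like growth factors, was lower in members than in both other sets, at 25.2 CPM against 82.1 in the comparison set and 77.1 in old. The calcification inhibitor Mgp was at 1954 CPM in members, 3806 in the comparison set and 1505 in old.

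**Figure D1:**
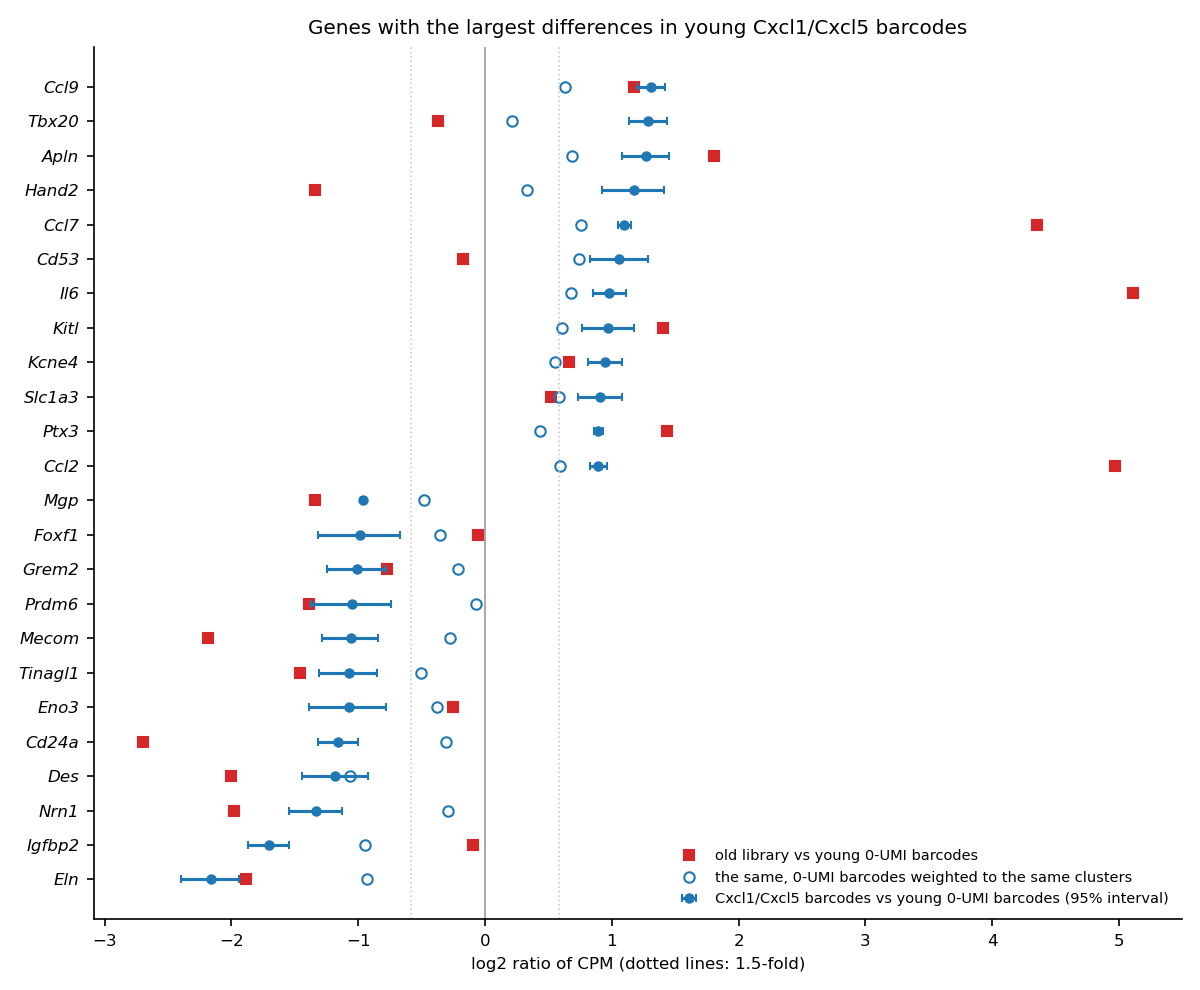
Log2 ratios of CPM for the 12 genes highest and the 12 lowest by this measure, members over the 8872 young barcodes with 0 UMIs (filled circles with 95% counting intervals). Open circles give the same ratio with the comparison set weighted to the members' clusters, and squares give old over the same young barcodes; dotted lines mark 1.5-fold. For Il6, Ccl2 and Ccl7 the old value lies far to the right of the members', while Tbx20, Hand2 and Cd53 are high in members and not in old.

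Several genes were no nearer to the old level in members than in the comparison set. Tbx20, a transcription factor of the cardiac mesoderm, was at 38.9 CPM in members, 26.6 with 1 UMI, 15.9 in the comparison set and 12.3 in old (log2 1.29, 1.14 to 1.44). Hand2, a transcription factor of heart and limb mesenchyme, was at 14.5, 11.01, 6.44 and 2.54 CPM (log2 1.17, 0.93 to 1.41). Ptn, the growth factor pleiotrophin, was at 53.3 CPM in members, 32.4 in the comparison set and 2.25 in old. Col11a1, a minor fibrillar collagen, was at 67.3, 62.1 and 4.91 CPM, and Fbn2, the fibrillin of developing microfibrils, at 36.6, 29.7 and 5.39 CPM. F3, tissue factor, was at 411, 327 and 102 CPM. These single genes were thus as high or higher in members than in the comparison set, and Tbx20 itself differed little between the comparison set and old. They do not stand for all genes low in old: of 18 picked earlier as such, 9 were lower in members and 1 was higher at a minimum of 20 UMIs.

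In lists that earlier results on these 2 libraries had picked for their difference between the ages, genes went both ways in members. At a minimum of 20 UMIs, more of those past 1.5-fold went the way of old than the other way. Lists picked from these data are no independent support for a direction. These lists were read at a minimum of 20 UMIs per gene over both young groups, where 4.90% of 13902 genes were at least 1.5-fold higher in members and 5.86% lower. Of the genes picked as high in old, 22 were measured, 7 were at least 1.5-fold higher in members, 4 were lower and the median log2 ratio was 0.39. All 22 were higher in old, where 17.1% of genes were, with a median of 3.69. Igfbp5, at 141 CPM in old, was one of the 4, at 5.196 CPM in members against 10.6. Of the genes picked as low in old, 18 were measured, 1 was higher in members, 9 were lower and the median was -0.87. All 18 were lower in old, where 12.4% of genes were, with a median of -3.31. At the 10 CPM filter of the other lists, the list high in old had 3 measured, 1 higher and 0 lower (median 0.48), and the list low in old had 7 measured, 1 higher and 1 lower, with a median of 0.12, so the sign of its median depended on the filter.

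For several of the higher genes the level climbed with the number of Cxcl1 and Cxcl5 UMIs, and for others it did not. Ccl7 was at 137, 206, 236, 251, 401 and 560 CPM in young barcodes with 0, 1, 2, 3 to 4, 5 to 9 and 10 or more UMIs. Ccl9 was at 27.0, 41.2, 50.2, 66.4, 85.1 and 123 CPM over the same bins, passing the old level of 60.8 CPM at 3 to 4 UMIs. Il6 was at 25, 34.6, 40.3, 42.3, 62.8 and 101 CPM, and stayed below the 861 CPM of old in each bin. Apln was at 10.4, 15.6, 19.3, 22.9, 35.3 and 41.5 CPM against 36.3 in old, and Ptx3 at 410, 566, 698, 709, 912 and 1000.1 CPM against 1108. Ccl2 had 1 step back, with 132 CPM at 1 UMI and 118 CPM at 2. Cd53 had no such order, at 7.78, 10.7, 15.9, 19.9, 8.92 and 21.9 CPM, and Ifit1 was highest at 2 UMIs. Eln was at 57.7, 26.2, 18.1, 7.71, 10.5 and 10.4 CPM, so that it was lowest at 3 to 4 UMIs and no lower beyond. The 474 barcodes just inside the rule (2 UMIs) and the 1304 just outside it (1 UMI) were at 236 and 206 CPM for Ccl7, 40.3 and 34.6 for Il6 and 19.9 and 59.9 for Igfbp2.

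**Figure D2:**
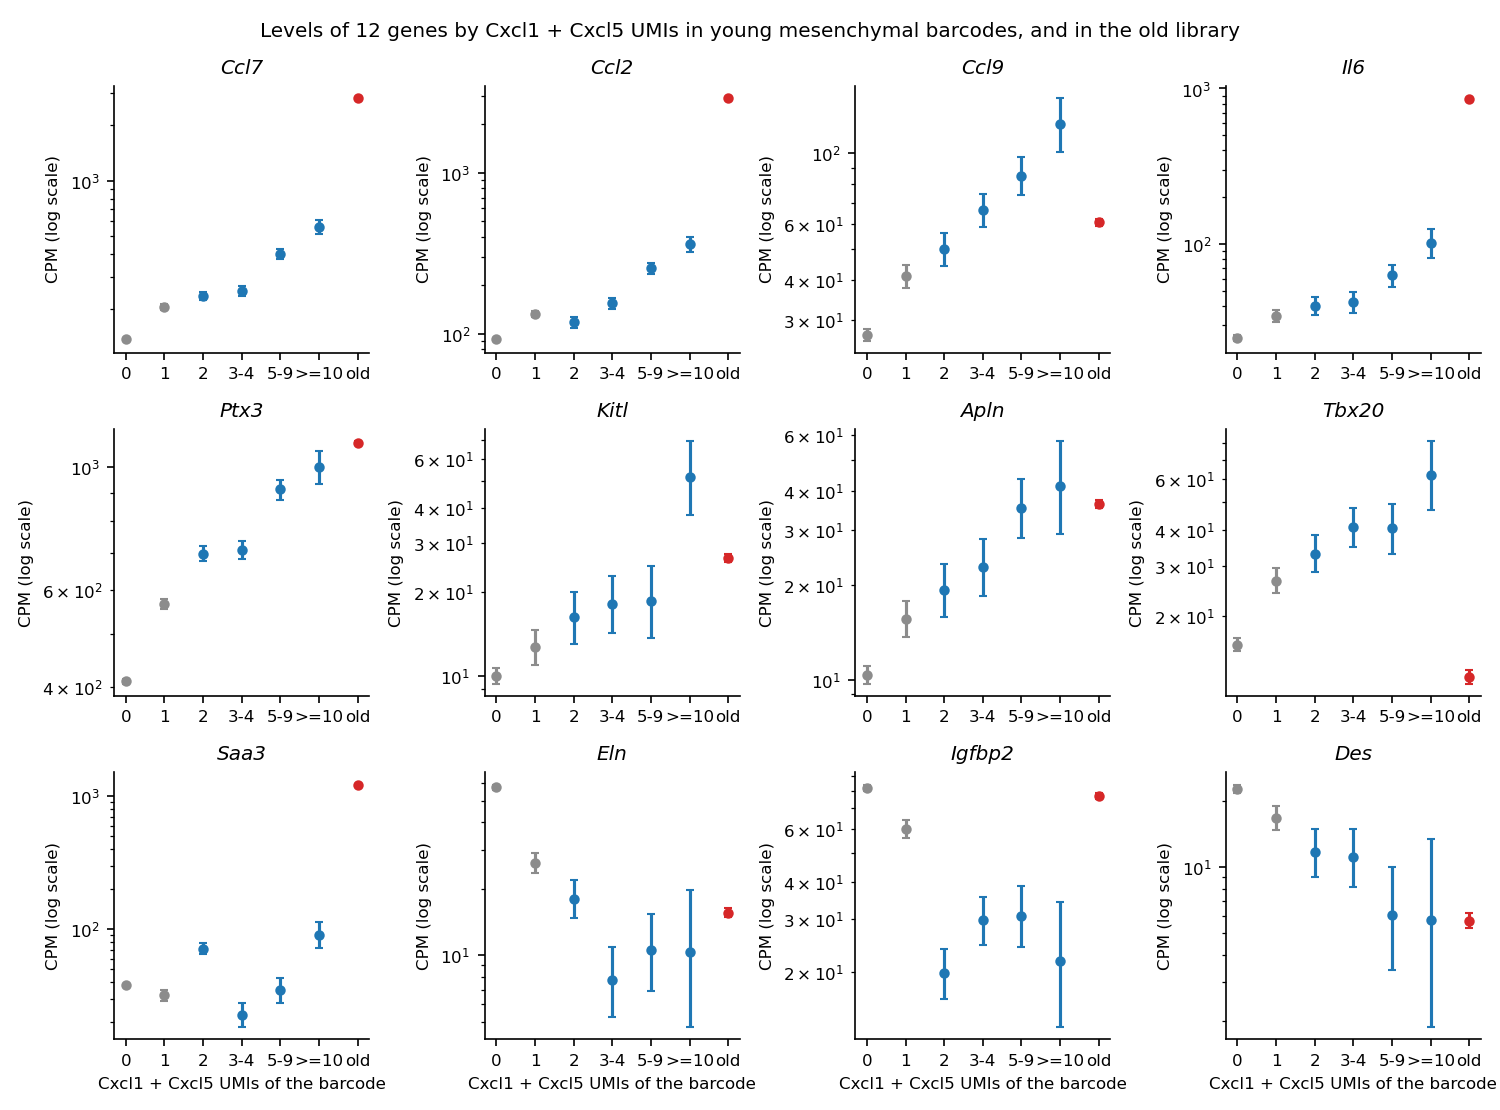
CPM (log scale, a separate axis per gene) of 12 genes in young stromal barcodes grouped by their Cxcl1 plus Cxcl5 UMIs, from 0 to 10 or more, and in all old stromal barcodes; bars are 95% counting intervals, grey marks barcodes outside the rule, blue the members and red the old library. Ccl7, Ccl9 and Il6 climb with each bin, Saa3 shows no order, and Eln and Des are lower in each member bin than at 0 UMIs.

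Members were concentrated in some young clusters. Young stromal barcodes were clustered on 1993 variable genes without the genes of the rule, giving 13 clusters that are called by number and leading genes, with no type name. Cluster 5, led by Tbx20, Frzb, Ptn and Tcf21, had 231 members among 1125 barcodes (20.5%, 18.2 to 23). Cluster 4, led by Hp, Il1rn, Ccl9 and Igfbp4, had 208 among 1164 (17.9%), cycling cluster 1, led by Top2a and Mki67, had 233 among 1543 (15.1%), and cluster 0, led by Slfn5, Igfbp3 and Lpl, had 254 among 2147 (11.8%). These 4 clusters held 926 members (83.4%) and 47.1% of the comparison set. Cluster 3, led by Igfbp2, Tinagl1 and Cnn1, had 3.07% members, and cluster 6, led by Clu, Mgp and Eln, had 3.71%. The clusters were built from the same counts, and some are led by genes compared here, such as Tbx20, Hp and Ccl9. Weighting to these clusters can therefore shrink the ratios of such genes by construction. What part the makeup has in the gene differences above was not tested.

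**Figure D3:**
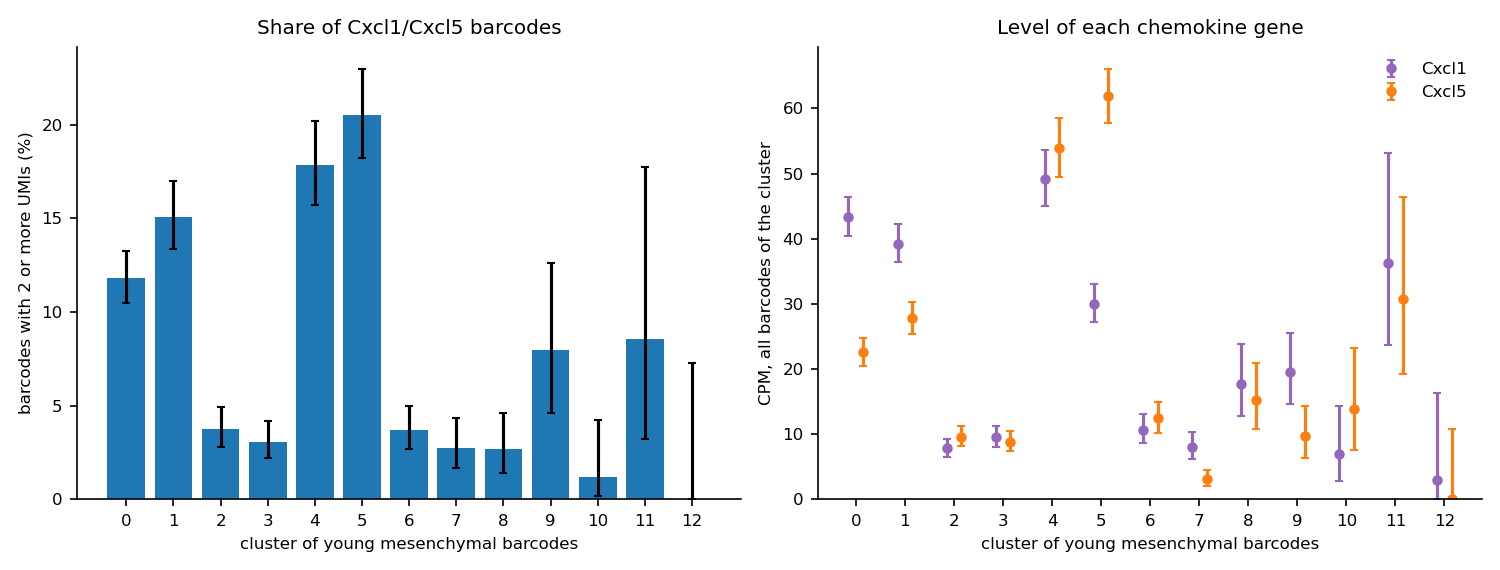
Left, the share of barcodes with at least 2 Cxcl1 plus Cxcl5 UMIs in each of 13 clusters of young stromal barcodes (bars from 0, 95% exact binomial intervals); right, the CPM of Cxcl1 and of Cxcl5 over all barcodes of each cluster (95% counting intervals). Clusters 0, 1, 4 and 5 stand above 10%, and cluster 5 has 61.9 CPM of Cxcl5 against 30.01 CPM of Cxcl1 while cluster 0 has 22.6 against 43.4.

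When the comparison set was weighted to the members' share of each cluster, a comparison added after the cluster shares had been seen, 10 of 7165 genes remained at least 1.5-fold higher in members (0.140%) and 4 lower (0.0558%). All of these were among the 74 and 51. The 10 were Apln, Ccl2, Ccl7, Ccl9, Cd53, Ifit1, Il6, Kitl, Slc1a3 and Stc1, and the 4 were Des, Eln, Flt1 and Igfbp2. Of these, Ifit1 was under 1.5-fold without the highest doublet scores. Slc1a3 encodes a glutamate transporter, Stc1 the hormone stanniocalcin and Flt1 a VEGF receptor. Ccl7 had a log2 ratio of 0.76 after weighting, Il6 0.68, Ccl9 0.63 and Ccl2 0.59. Eln was at -0.93, which is 1.90-fold lower, and Igfbp2 at -0.94. Tbx20 was at 0.22, Hand2 at 0.33 and Hp at 0.03, and Il1rl1 turned from -0.71 to 0.44.

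Within single clusters Ccl7, Ccl2, Il6, Ptx3 and Kitl were higher in members throughout, with intervals that reached 0 in cluster 2 for Il6 and in clusters 2 and 5 for Kitl. In the 5 clusters with at least 50 members, Ccl7 was higher in members in 5 of 5, with log2 ratios from 0.37 to 1.37, and Ccl2 in 5 of 5, from 0.15 to 1.44. Il6 was higher in 5 of 5, from 0.24 to 0.76, Ptx3 in 5 of 5, from 0.24 to 0.77, and Kitl in 5 of 5, from 0.32 to 1.00. Tbx20 was higher in 4 of 5, with intervals that spanned 0 in clusters 0 and 1, and Saa3 was higher in 1 of 5. Lcn2 had 0 UMIs in the members of cluster 2. Eln was below 0 in 5 of 5, from -2.38 to -0.03, with an interval that spanned 0 in clusters 0, 1 and 4. Clusters of 1 library are not replicates, and these counts carry no test.

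Members fell into 3 kinds by which of both genes had a UMI. At a median of 3 UMIs a barcode can lack one gene by sampling alone, so the kinds are no cell types. Among the members 440 (39.6%) had Cxcl1 only, 332 (29.9%) Cxcl5 only and 338 (30.5%) both. Over all young stromal barcodes Cxcl5 was found in 22.3% (20.2 to 24.4) of those with Cxcl1 and in 9.17% (8.61 to 9.76) of those without. Median depths were 9729.5 UMIs in Cxcl1-only, 10744 in Cxcl5-only and 10843 in members with both. A comparison of Cxcl1-only with Cxcl5-only members, added after these numbers were seen, had 149 of 7191 genes at least 1.5-fold higher in Cxcl1-only (2.07%) and 188 higher in Cxcl5-only members (2.61%).

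Tbx20 had the largest difference between the single kinds. It was at 77.2 CPM in Cxcl5-only, 33.0 in both, 11.8 in Cxcl1-only members and 15.9 in the comparison set, 6.54-fold higher in Cxcl5-only than in Cxcl1-only members. Tcf21, a transcription factor of epicardial and fibroblast precursors, was at 36.7, 24.0, 9.52 and 18.6 CPM, Hand2 at 24.1, 13.6, 7.25 and 6.44 CPM, and Gata4 at 15.9, 9.91, 4.76 and 5.42 CPM. Ptn was at 78.4, 67.7, 20.3 and 32.4 CPM, and Cxcl14 at 34.3, 18.8, 6.62 and 12.2 CPM. Members with both genes lay between the single kinds for each of these 6. In Cxcl1-only members Tbx20, Tcf21, Ptn and Cxcl14 were below the comparison set.

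Cxcl1-only members had more Cd53, a tetraspanin gene best known from leukocytes, at 24.8 CPM against 7.45 in Cxcl5-only, 14.6 in both and 7.78 in the comparison set. The collagen VI gene Col6a3 was at 40.2 CPM in Cxcl1-only, 15.4 in Cxcl5-only and 34.7 in the comparison set, and the sphingomyelinase gene Smpd3 at 85.7, 35.5 and 47.2 CPM. Saa3 had the largest difference in this direction, 88.2 against 22.6 CPM, but 300 of 426 UMIs came from 1 barcode. Without the highest barcode of each kind it was at 26.1 against 18.6 CPM.

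**Figure D4:**
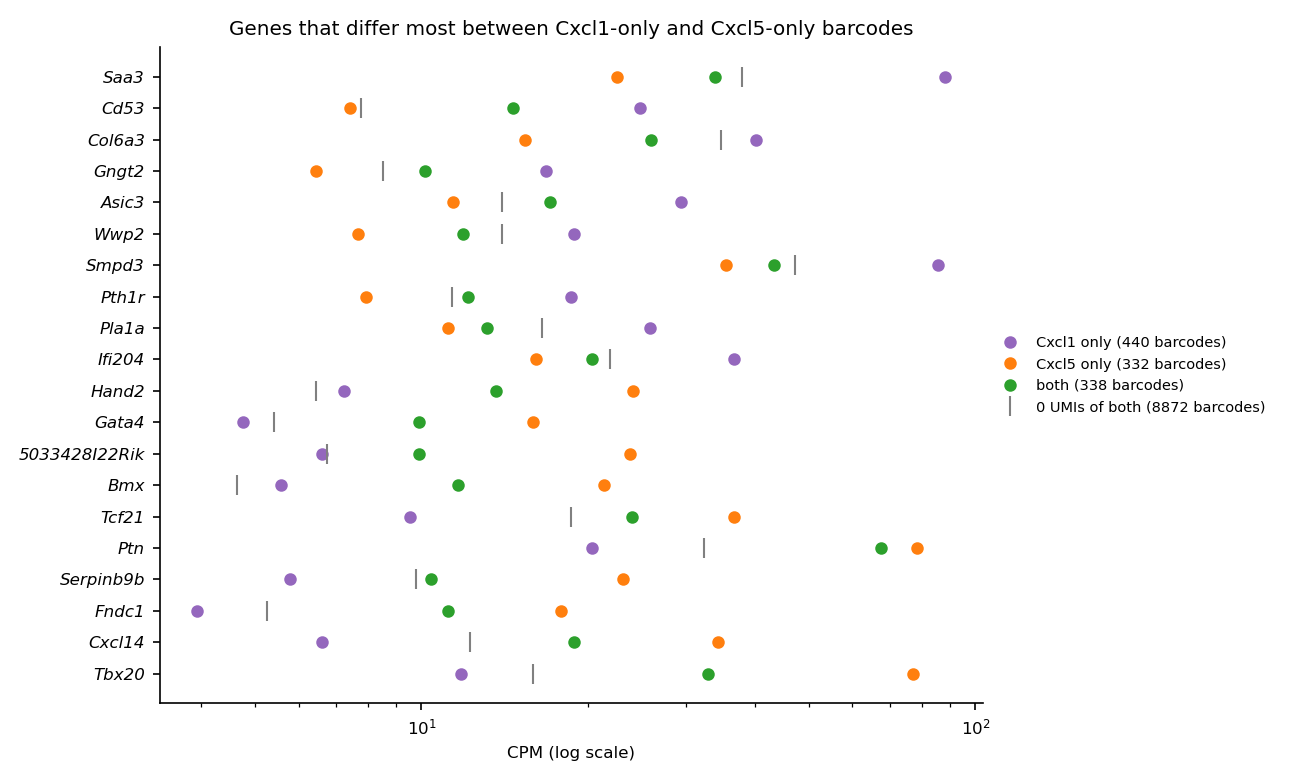
CPM (log scale) of the 10 genes with the largest difference in each direction between 440 Cxcl1-only and 332 Cxcl5-only members, with the 338 members that carry both and the 8872 barcodes with 0 UMIs. Tbx20, Ptn and Tcf21 are highest in Cxcl5-only members, Cd53 and Smpd3 in Cxcl1-only members, and the Saa3 value of Cxcl1-only members rests on 1 barcode.

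The kinds also sat in different clusters. Cluster 5 held 125 of the Cxcl5-only members (37.7%), 77 with both (22.8%) and 29 Cxcl1-only members (6.59%). Cluster 0 held 152 Cxcl1-only (34.5%) and 43 Cxcl5-only members (13.0%). Over all young stromal barcodes, the 983 with a Tbx20 UMI had 50.3 CPM of Cxcl5 and the 10303 without had 21.2 CPM (log2 1.25, 1.12 to 1.37), while Cxcl1 was at 25.1 and 25.9 CPM. Their median depths were 12502 and 9200 UMIs.

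The last comparison asked how near single members were to old barcodes in the genes outside the rule. In a joint space of 3116 variable genes and 30 components, 0.462% of the 15 nearest neighbours of members were old barcodes, against 0.204% for barcodes with 1 UMI, 0.224% for the comparison set and 99.5% for old barcodes themselves. Barcode numbers alone would give 47.6%, but the space was not corrected for library, and the comparison set also had few old neighbours. A low share can therefore not tell cell state apart from the separation of the 2 libraries. Of the 1110 members, 35 had any old neighbour and 3 had more old than young neighbours. For members with at least 5 UMIs the share of old neighbours was 1.24%, and for those with at least 10 it was 2.11%.

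By likelihood, each barcode's counts were set against the summed profile of old barcodes and that of the comparison set, which contain the old and comparison barcodes scored. The counts of 26 members (2.34%, 1.54 to 3.41) were more likely under the old profile, against 79 barcodes of the comparison set (0.890%, 0.706 to 1.11) and 96.4% of old barcodes. The median log likelihood ratio per 1000 UMIs was -45.3 in members, -52.7 with 1 UMI, -60.7 in the comparison set, -29.9 in members with at least 10 UMIs and 82.5 in old. As a mixture of both profiles, the summed members took an old weight of 7.45% (7.32 to 7.58), barcodes with 1 UMI 2.72%, members with at least 5 UMIs 12.7% and those with at least 10 UMIs 17.9%. The comparison set is the young end of this mixture, so its own weight is 0 by construction, and no group can fall below 0. The weight can also not tell cell state apart from the separation of the 2 libraries. Leaving the immune gene lists out gave the members 9.52%. With the comparison set weighted to the members' clusters the weight was 3.57% and the share of members more likely old 0.901%.

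**Figure D5:**
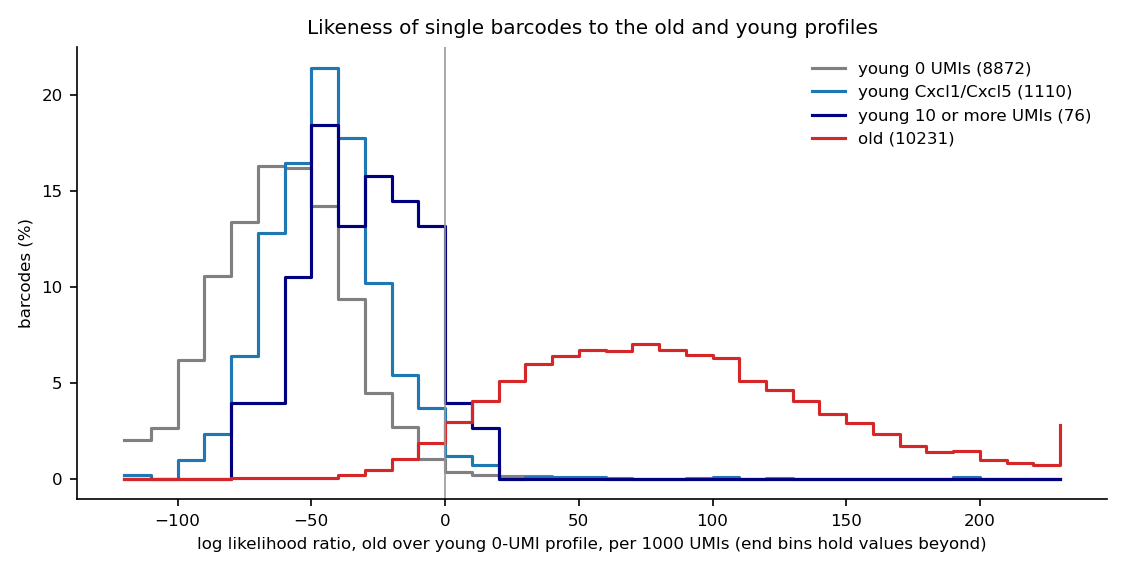
Share of barcodes (%) in bins of the log likelihood ratio of old over young comparison profile per 1000 UMIs; values above 0 are more likely under the old profile, and the end bins collect values beyond the axis. The members and the 76 with at least 10 UMIs are shifted from the comparison set towards 0 (medians -45.3, -29.9 and -60.7) and remain apart from the old barcodes (median 82.5).

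The old library allowed the same question in cells that are in neither young group, a comparison chosen after the young results were seen. The 2558 old stromal barcodes with the highest Cxcl1 and Cxcl5 level (12478 CPM) were set against the 2558 with the lowest (1389 CPM), at median depths of 8407.5 and 10440.5 UMIs. The low group lay below the 1560 CPM of old Schwann-type and the 2612 CPM of old endothelial-type barcodes, so its level is no higher than in these other types. Of 7494 genes, 294 were at least 1.5-fold higher in the high group (3.92%) and 139 lower (1.85%). Cell-cycle genes were lower in the high group, with Top2a at 67.7 CPM against 122 and Ube2c at 91.4 against 165. In young, the members held more barcodes with at least 3 cell-cycle UMIs than the comparison set, but they were also deeper. By CPM, Top2a and Ube2c were higher in members by log2 0.27 and 0.20, and 0 of 24 proliferation genes measured passed 1.5-fold. What part cell cycling has in the values was not tested. These groups were chosen on their own Cxcl1 and Cxcl5 values. Ccl7 was at 4467 CPM against 1687, Ccl2 at 4709 against 1703, Il6 at 1500 against 459 and Ptx3 at 1930 against 591. Saa3, which showed no such order in young members, was at 2439 CPM against 630. Lower in the high group were Des, at 2.49 CPM against 11, and Eln, at 8.75 against 22.3. Igfbp2 was at 65.6 and 65.8 CPM and Cd53 at 7.28 and 6.53 CPM, without the difference of the young members.

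Of 6867 genes measured in both comparisons, 69 were higher in young members and 213 in the old high group (3.10%), and 54 were shared, 78.3% of the young and 25.4% of the old list. Lower genes numbered 42 and 131 (1.91%), and 10 were shared, 23.8% and 7.63%. No gene was higher in young and lower in old, and 3 were lower in young and higher in old. Over these genes Pearson's r was 0.31 and Spearman's rho 0.19, as a description, since genes of 1 library are not independent.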

How the data were processed

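The deposited files hold raw UMI counts per gene and barcode, made by the authors with Cell Ranger 3.0.1, per the file headers, on mm10, per the submitters' processing notes; the labels and headers give no aligner settings or annotation. Of 31053 gene rows, 31011 matched GENCODE vM21, which gave gene coordinates. Promoter windows came from RefSeq GRCm38.p6. The members, lists and comparisons were chosen with earlier results of these data known.

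UMIs were summed over the barcodes of a group and given as CPM of the group's total. Log2 ratios carry exact conditional Poisson 95% intervals and shares exact (Clopper-Pearson) binomial 95% intervals; there was no test, since each age is 1 library and cells are not replicates. Genes with a mean of at least 10 CPM in the groups compared were read against a 1.5-fold limit, leaving out the rule's genes and mitochondrial genes. Named genes were the 12 largest and 12 smallest log2 ratios, up to 4 genes per list with the largest differences and at least 20 UMIs, and whole lists of CXC chemokine, NF-kB, acute-phase and age-picked genes; Cxcl1-only against Cxcl5-only members named 10 genes each way. Mitochondrial, ribosomal, haemoglobin and immunoglobulin genes, Xist and Y-linked genes were not named. For likeness, profiles had 0.5 UMI added per gene; for clusters and neighbours, counts were scaled to 10000 per barcode and log-transformed.

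Scrublet's automatic threshold marked 0 young and 5 old barcodes and so did not work; the top 0.8% of scores per 1000 barcodes served as an alternative only. Python 3.11.15, numpy 2.4.6, scipy 1.17.1, pandas 2.3.3 and scanpy 1.11.5 were used, and the fold, neighbour and mixture steps were tested on simulated data. Alternatives changed the UMI minimum, weighting, scaling, level filter, doublet, cycling and quality filters and the likeness settings; the closing section gives their effect.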

Additional observations from a re-analysis of the deposited data

How the results depend on the processing

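The 5 results moved with the settings. From 74 higher and 51 lower genes, a minimum of 1 UMI gave 28 and 19, and of 5 UMIs 173 and 85. A level filter of 5 CPM gave 114 and 83, and of 20 CPM 44 and 31. Requiring 200 CPM of Cxcl1 and Cxcl5 gave 128 and 65, and weighting to the members' clusters (chosen after seeing the data, as were the next 3) 10 and 4. Leaving out the 111 members with 8 to 55 UMIs gave 66 and 47, leaving out the mesothelial-led and Schwann-led clusters 77 and 52, and leaving out, for each gene, the barcode with most of its UMIs in each group 67 and 54. The old neighbour share moved from 0.462% to 1.24% at 5 UMIs. The share of members more likely old, 2.34%, was 3.62% at 3 UMIs, 6.21% at 5, 3.51% without the immune lists and 0.901% with cluster weighting. The mixture weight, 7.45%, was 4.82% at 1 UMI, 9.32% at 3, 12.7% at 5, 10.8% at 200 CPM, 8.34% without the highest doublet scores, 7.87% without cycling barcodes, 9.52% without the immune lists, 3.57% with cluster weighting and 6.62% without the top members. The cause was not tested. Of the single-gene log2 ratios under all but these 4 late alternatives, 163 left their counting interval, 461 did not and none reversed; Il1rl1 reversed, from -0.71 to 0.44, under cluster weighting. A comparison with old barcodes of 0 UMIs was not run, since 12 existed and 50 were the minimum. No paired analysis was possible because each group is 1 library. Depth limits genes such as Cxcl2, Cxcl3, Il11, Lcn2 and Igfbp5, which had under 100 UMIs in members. Tbx20, Tcf21, Hand2, Gata4, Ptn and Cxcl14 had under 100 in Cxcl1-only members. In Cxcl5-only members Hand2, Gata4, Cd53, Col6a3 and Saa3 did.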

Other observations

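Tbx20 went with Cxcl5 in the old library too, but under 1.5-fold. The 610 old barcodes with a Tbx20 UMI had 2897 CPM of Cxcl5 and the 9621 without had 2329 CPM (log2 0.31, 0.29 to 0.33), while Cxcl1 was lower in the former, at 2667 against 3231 CPM. Cxcl5 per Cxcl1 was 1.09 with and 0.721 without Tbx20 in old, and 2.003 and 0.818 in young. Median depths were 10975.5 and 9509 UMIs in old. The old difference was not particular to Tbx20. Old barcodes with a UMI of Tcf21, Hand2 or Saa3 were higher in Cxcl5 than those without, by log2 0.47, 0.47 and 0.29. Those with Cd53 were lower, at -0.18. In young the values for Tcf21, Hand2, Saa3 and Cd53 were 0.59, 1.01, 0.10 and 0.20.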
